A study of Mus musculus with 4 samples.

Results

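The enzymes that break down amino acids were examined as 1 group of 41 genes, chosen by name from the tyrosine, tryptophan, histidine, branched-chain, propionate, glycine and serine, proline, lysine and glutamate routes. Of these 41, 36 had a probe on the array, 32 were detected above background on at least 2 of the 4 arrays and were tested, and these 32 stand among 9311 tested rows (8579 genes and 732 probes with no gene symbol). Hgd, Acmsd, Amdhd1, Mccc2 and Sdsl had no probe under their symbol and were not analysed here. Hibch, Mmut (listed under its older symbol Mut), Gcsh and Amt had 1 probe each, which was not above background on any array.

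Liver RNA was measured on Illumina arrays in 2 groups of mice, 2 months old and not fasted. The Shp2hep-/- livers (n = 2) came from animals positive for albumin-Cre, a transgene in which the albumin promoter drives Cre recombinase in hepatocytes. The state of the Shp2 gene in the other cells of the liver was not analysed here. The Shp2Floxed/Floxed livers (n = 2), labelled wild type, carried Shp2 alleles flanked by the recognition sites of Cre. Cre thus acts on the allele that the controls carry too. The labels say neither the sex of the animals nor how many contributed to each RNA, so that p-values measure the spread between these samples, which may be technical.

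The liver is the main site at which dietary amino acids lose their nitrogen and their carbon skeletons are turned into glucose, ketone bodies or carbon dioxide. Most of the enzymes act in the cytosol or mitochondria of hepatocytes, and their genes are classically raised by glucocorticoids, glucagon and a protein-rich diet. Shp2, encoded by Ptpn11, is a tyrosine phosphatase that carries signals from growth factor receptors to the Ras and ERK cascade, and the comparison asks which liver transcripts differ when hepatocytes lack it.

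The arrays had 12328 and 11809 of 25697 probes above background in Shp2hep-/- livers and 11990 and 11542 in Shp2Floxed/Floxed livers. Ptpn11 itself had log2 intensities of 11.38 and 11.56 in Shp2hep-/- livers, against 12.75 and 12.85 in Shp2Floxed/Floxed livers (difference −1.33, SE 0.18, limma adjusted p = 0.0599). Its groups lay apart in the direction the labels give, although the gene missed the threshold over all rows; whether the probe lies in the deleted exon was not analysed here. Among hepatocyte markers, 10 of 12 were tested, with a median difference of −0.02, and their summed intensity was 361775 to 394191 units in Shp2hep-/- livers and 374794 to 386228 in Shp2Floxed/Floxed livers. Fgb was the 1 hepatocyte marker with a probe that was not above background.

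No gene of amino acid breakdown passed the test, and most differed from the controls by a small amount in the same direction. In limma's fit over all rows, 0 of the 32 were higher and 0 were lower at an adjusted p under 0.05, where 0.451% of all rows were higher and 0.344% were lower. At an unadjusted p under 0.05 there was 1 higher gene, Kynu, and 3 lower genes, Ftcd, Bckdhb and Aass, against a background of 9.45% higher and 7.07% lower. The smallest adjusted p in the group was 0.216, that of Ftcd.

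Both Shp2hep-/- arrays lay below both Shp2Floxed/Floxed arrays for 18 of the 32 genes (56.2%), where 23.8% of all rows did so. Both lay above both controls for 2 genes, Kynu and Hibadh (6.25%), where 24.8% of all rows did so. For the other 12 genes the groups overlapped. The median difference of the 32 genes was −0.15 on the log2 scale, with 23 of 32 below 0, while the median over all rows was 0.01 with 49.4% below 0. Some of these gaps were narrow: the 18 genes included Uroc1 and Bckdha, whose nearest arrays of the 2 groups differed by less than 0.01.

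**Figure D1:**
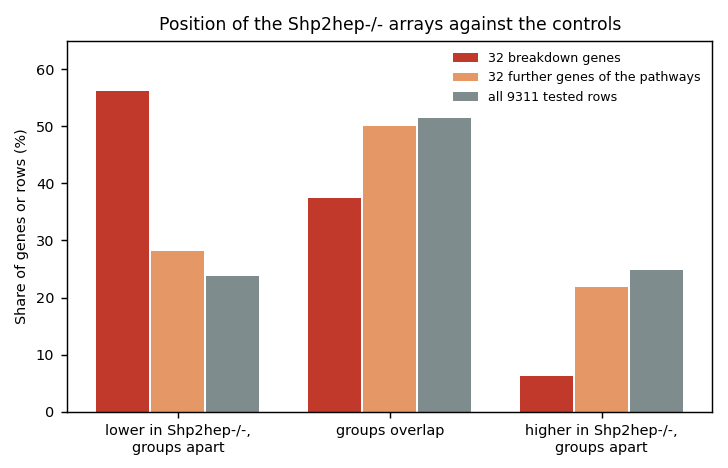
Share of genes or rows, in percent, whose 2 Shp2hep-/- arrays both lay below both Shp2Floxed/Floxed arrays, overlapped with them or both lay above them. Bars show 32 amino acid breakdown genes, 32 further genes of the same pathways and all 9311 tested rows; in the first class the 3 bars stand at 56.2%, 28.1% and 23.8%.

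The sizes were modest. Differences ran from −0.82 (Aass) to 0.51 (Kynu), and the median absolute difference was 0.24, against 0.25 over all rows. The 95% interval of the difference lay inside a 2-fold change either way for 27 of the 32 genes, where 65.9% of all rows had such an interval. The spread between replicates was also smaller in the group. All rows include many dim probes, and neither this comparison nor that of the intervals was matched for intensity. The median gap was 0.18 within the Shp2hep-/- pair and 0.13 within the Shp2Floxed/Floxed pair, against 0.25 and 0.22 over all rows. Ftcd, Kmo, Gldc and Aass had intervals that reached past a 2-fold decrease, and that of Glud1 reached past a 2-fold increase, so that a change of that size lay within the error for these 5 genes with 2 arrays per group.

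**Figure D2:**
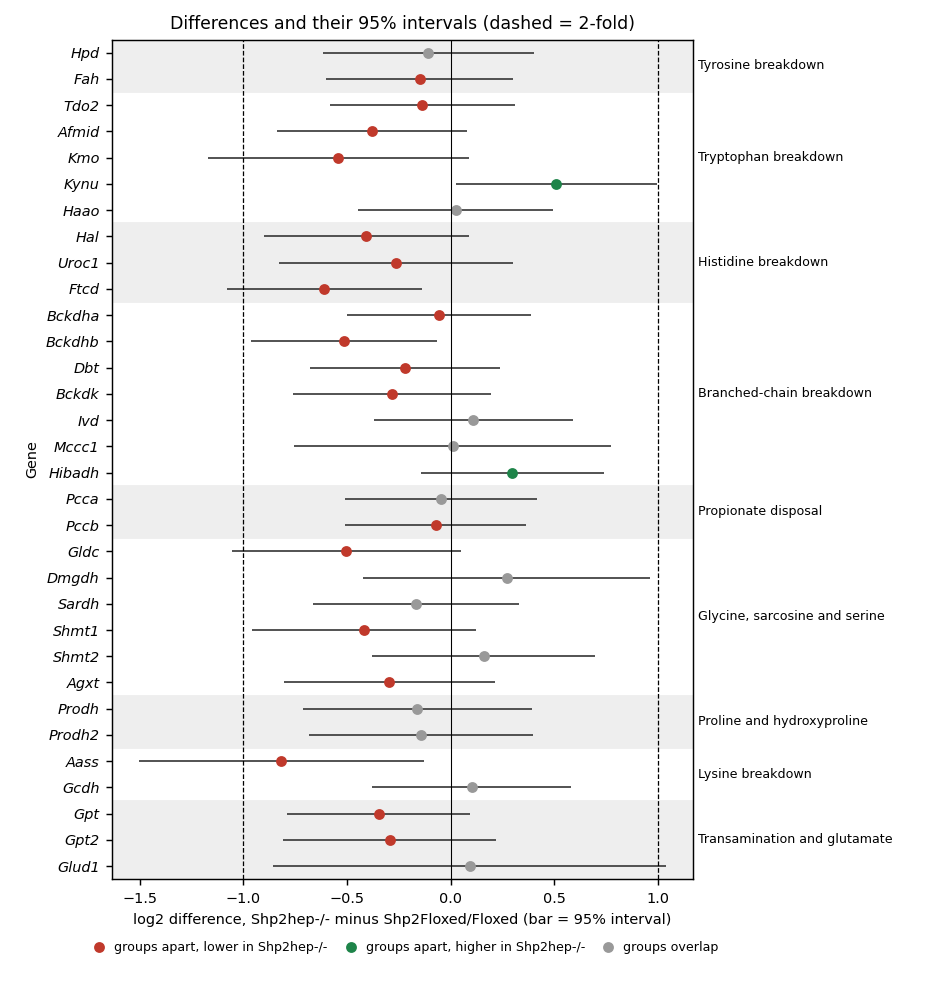
Log2 difference of each tested gene, Shp2hep-/- minus Shp2Floxed/Floxed, with its 95% interval from the limma fit (n = 2 per group), grouped by pathway. Dashed lines mark 2-fold changes; red points are genes whose Shp2hep-/- arrays both lay below the controls (18), green points those above (2) and grey points those that overlapped (12).

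The histidine route had the most uniform pattern, with all 3 tested genes lower on both Shp2hep-/- arrays. Over all rows 23.8% lay apart and lower in this way, and 56.2% of the 32 genes did. Whether 3 of 3 exceeds these shares was not tested. Hal, the histidase that removes ammonia from histidine to give urocanate, had log2 intensities of 12.64 and 12.70 in Shp2hep-/- livers, against 13.22 and 12.93 in Shp2Floxed/Floxed livers (difference −0.41, SE 0.20, adjusted p = 0.387). Uroc1, the urocanase of the next step, had 13.47 and 13.53 in Shp2hep-/- livers and 13.53 and 13.99 in Shp2Floxed/Floxed livers (−0.26, SE 0.22). The 2 groups of Uroc1 were all but touching, and the width of its control pair, 0.46, exceeded the difference itself.

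Ftcd, which hands the formimino group of histidine to folate, had 13.92 and 13.77 in Shp2hep-/- livers and 14.36 and 14.54 in Shp2Floxed/Floxed livers. The difference was −0.61 (SE 0.19, 95% interval −1.08 to −0.14, unadjusted p = 0.0205, adjusted p = 0.216), 1.52-fold lower. A further detected Ftcd probe had 7.06 and 7.96 in Shp2hep-/- livers and 8.74 and 8.82 in Shp2Floxed/Floxed livers, a difference of −1.27 (SE 0.33), so that both probes placed the groups apart. When the variance was allowed to follow intensity, Ftcd was the 1 gene of the 32 to pass (adjusted p = 0.0388, SE 0.13). The same setting called 309 of the 8579 tested genes of the whole table, a share close to that in the group. Over the other alternatives that kept all arrays no gene of the group passed.

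The promoters of these 3 genes, the only pathway in which every tested gene lay apart in 1 direction, are shown for reference, chosen after their values were seen. Sequences are from RefSeq, build GRCm38.p6, plus strand, and each covers 300 bases around the start of the gene. They lie at chr10:93488518-93488817 for Hal, chr6:90333039-90333338 for Uroc1 and chr10:76575398-76575697 for Ftcd. Capitals mark matches to the TATA box TATAAA on either strand.
Hal: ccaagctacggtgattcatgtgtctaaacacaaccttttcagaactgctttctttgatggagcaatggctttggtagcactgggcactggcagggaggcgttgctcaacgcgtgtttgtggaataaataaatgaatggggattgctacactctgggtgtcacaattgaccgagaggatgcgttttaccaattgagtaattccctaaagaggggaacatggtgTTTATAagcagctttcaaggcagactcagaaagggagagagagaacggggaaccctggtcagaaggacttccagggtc
Uroc1: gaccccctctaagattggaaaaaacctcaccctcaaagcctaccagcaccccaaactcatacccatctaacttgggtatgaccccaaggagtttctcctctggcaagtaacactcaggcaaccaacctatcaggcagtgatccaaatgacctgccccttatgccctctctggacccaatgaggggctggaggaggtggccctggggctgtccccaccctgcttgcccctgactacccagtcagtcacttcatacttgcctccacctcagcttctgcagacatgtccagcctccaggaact
Ftcd: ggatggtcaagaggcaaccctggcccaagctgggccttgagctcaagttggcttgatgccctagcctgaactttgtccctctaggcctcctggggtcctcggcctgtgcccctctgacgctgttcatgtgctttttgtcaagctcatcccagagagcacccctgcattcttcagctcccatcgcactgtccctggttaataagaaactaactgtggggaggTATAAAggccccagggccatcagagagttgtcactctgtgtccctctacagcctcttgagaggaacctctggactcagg
The match in Ftcd spans bases 222 to 227 on the strand of the gene, and that in Hal bases 223 to 228 on the opposite strand; Uroc1 held none. Of 32544 promoters of this length, 13.6% held TATAAA on either strand. The letters CAAAGTCCA of the liver factor HNF4 (0.479% of promoters) and TTGCNNCAA of the C/EBP factors (2.09%) were not found in these 3 windows on either strand. The arrays measured transcripts, not factor binding.

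Tryptophan is broken down through kynurenine, and its 5 tested genes differed in both directions. Tdo2, the dioxygenase that opens the ring of tryptophan in liver, had 9.64 and 9.70 in Shp2hep-/- livers and 9.76 and 9.86 in Shp2Floxed/Floxed livers, a difference of −0.14 (SE 0.18). Afmid, the formamidase that releases kynurenine, had 11.33 and 11.50 in Shp2hep-/- livers and 11.81 and 11.77 in Shp2Floxed/Floxed livers (−0.38, SE 0.18, adjusted p = 0.384). Its groups were apart, and Afmid was also the gene with the most probes.

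All 7 Afmid probes were detected on every array and all 7 gave lower means in Shp2hep-/- livers, with differences from −0.80 to −0.38; on 6 of the 7 the groups did not overlap. The probes share the same RNA and are not replicates. The probe used for the gene, chosen for its highest mean intensity, gave the smallest of the 7 differences. When each probe entered the fit separately, the lowest adjusted p among them was 0.246.

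Kmo, the monooxygenase that hydroxylates kynurenine, had 9.85 and 10.31 in Shp2hep-/- livers and 10.44 and 10.81 in Shp2Floxed/Floxed livers (−0.54, SE 0.25, adjusted p = 0.369). Kynu, the kynureninase that cleaves alanine from the side chain, differed the other way, with 12.58 and 12.82 in Shp2hep-/- livers and 12.13 and 12.25 in Shp2Floxed/Floxed livers. Its difference was 0.51 (SE 0.19, 95% interval 0.03 to 1.00, unadjusted p = 0.0424, adjusted p = 0.289), 1.42-fold higher, and it was the largest positive difference among the 32 genes. Haao, the dioxygenase that acts on the product of kynureninase, had 14.27 and 14.25 in Shp2hep-/- livers inside the control values of 14.35 and 14.12 (0.02, SE 0.19).

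**Figure D3:**
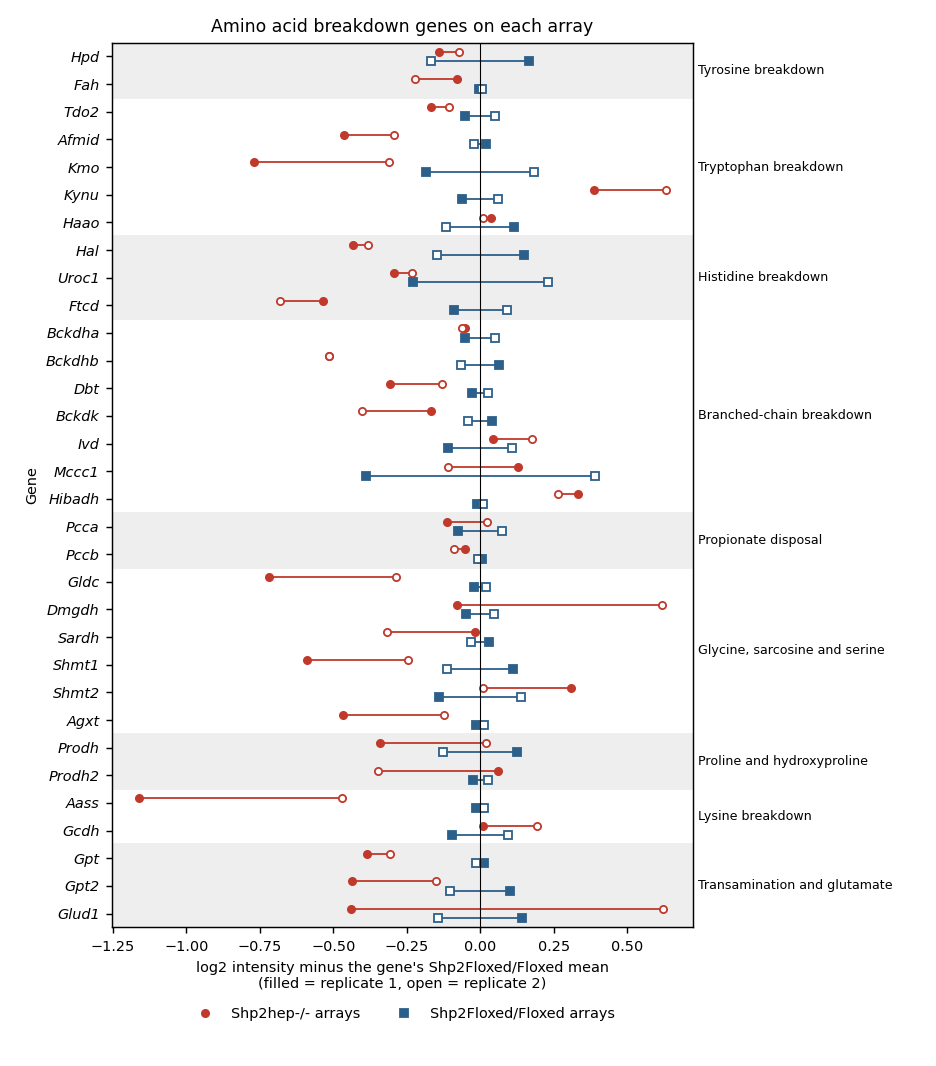
Log2 intensity of each tested gene on each array, minus the mean of the 2 Shp2Floxed/Floxed arrays (horizontal axis); circles are Shp2hep-/- arrays, squares Shp2Floxed/Floxed arrays, filled for replicate 1 and open for replicate 2. The 2 Shp2hep-/- points of Bckdhb coincide; Aass, Glud1 and Dmgdh have the widest Shp2hep-/- pairs, and Mccc1 the widest control pair.

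Branched-chain amino acids enter oxidation through the branched-chain ketoacid dehydrogenase complex, and the 3 genes of its decarboxylase and transacylase parts all lay lower, by unequal amounts. Bckdhb, the beta subunit of the decarboxylase, had 10.26 on both Shp2hep-/- arrays, against 10.84 and 10.71 in Shp2Floxed/Floxed livers (−0.51, SE 0.18, 95% interval −0.96 to −0.07, unadjusted p = 0.0314, adjusted p = 0.254). Its partner Bckdha, the alpha subunit, had 12.55 and 12.54 in Shp2hep-/- livers and 12.55 and 12.65 in Shp2Floxed/Floxed livers (−0.06, SE 0.18). Dbt, the transacylase core, had 11.64 and 11.81 in Shp2hep-/- livers and 11.92 and 11.97 in Shp2Floxed/Floxed livers (−0.22, SE 0.18). Dld, the dehydrogenase subunit shared with other complexes and 1 of the further pathway genes, had 8.63 and 9.33 in Shp2hep-/- livers and 8.39 and 8.85 in Shp2Floxed/Floxed livers, so that its groups overlapped (0.36, SE 0.31, named after its value was seen).

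The activity of the complex is set by phosphorylation, and the genes of its kinase and its phosphatase differed in opposite directions. Bckdk, the kinase that switches the complex off, had 9.05 and 8.81 in Shp2hep-/- livers and 9.26 and 9.17 in Shp2Floxed/Floxed livers (−0.28, SE 0.19, adjusted p = 0.520). A further probe of Bckdk differed by −0.33, also with the groups apart. Ppm1k, the mitochondrial phosphatase that switches the complex on and 1 of the further pathway genes, had 12.62 and 12.55 in Shp2hep-/- livers and 11.55 and 11.94 in Shp2Floxed/Floxed livers (0.84, SE 0.21, unadjusted p = 0.00887, adjusted p = 0.163). Neither passed over all rows, and the difference between the 2 genes was not tested.

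Below the complex, 2 of the 3 tested genes overlapped with the controls. Ivd, the isovaleryl-CoA dehydrogenase of leucine breakdown, differed by 0.11 (SE 0.19), and Mccc1, the biotin-carrying subunit of methylcrotonyl-CoA carboxylase, by 0.01 (SE 0.30). Mccc1 was also the gene whose controls disagreed most, with 8.24 and 8.0 in Shp2hep-/- livers lying between 7.73 and 8.50 in Shp2Floxed/Floxed livers. Hibadh, a dehydrogenase of valine breakdown, was the second gene with both Shp2hep-/- arrays above the controls, at 15.51 and 15.44 in Shp2hep-/- livers and 15.16 and 15.18 in Shp2Floxed/Floxed livers (0.30, SE 0.17, adjusted p = 0.473).

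Propionyl-CoA, the end product of valine and isoleucine, is carboxylated by the enzyme that Pcca and Pccb encode. Pcca differed by −0.05 (SE 0.18) and Pccb by −0.07 (SE 0.17), with 95% intervals of −0.51 to 0.42 and −0.51 to 0.37. The interval of Pccb was the narrowest of the group, and both lay inside a 2-fold change. Pccb had 12.05 and 12.01 in Shp2hep-/- livers and 12.11 and 12.09 in Shp2Floxed/Floxed livers, so that it counts among the genes apart and lower. A further Pccb probe differed by 0.20 with overlapping groups, so that the direction of Pccb is unsettled.

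Tyrosine breakdown was likewise near the control level. Hpd, the dioxygenase of hydroxyphenylpyruvate, differed by −0.11 (SE 0.20) and its groups overlapped. Fah, the fumarylacetoacetase of the last step, had 15.15 and 15.01 in Shp2hep-/- livers and 15.22 and 15.23 in Shp2Floxed/Floxed livers (−0.15, SE 0.18).

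Among 6 tested genes of glycine, sarcosine and serine, 3 lay lower on both Shp2hep-/- arrays, where 23.8% of all rows did so. For 4 of the 6 the difference was smaller than the gap within the Shp2hep-/- pair. Gldc, the decarboxylase of the glycine cleavage system, had 12.81 and 13.24 in Shp2hep-/- livers and 13.51 and 13.55 in Shp2Floxed/Floxed livers (−0.50, SE 0.22, adjusted p = 0.341). A further Gldc probe differed by −0.37, with groups apart by less than 0.01. Shmt1, the cytosolic serine hydroxymethyltransferase, had 9.84 and 10.18 in Shp2hep-/- livers and 10.54 and 10.31 in Shp2Floxed/Floxed livers (−0.42, SE 0.21).

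Shmt2, its mitochondrial counterpart, had 11.25 and 10.95 in Shp2hep-/- livers among control values of 10.80 and 11.08 (0.16, SE 0.21). A dimmer Shmt2 probe differed by −0.62, and both probes had overlapping groups, so that the direction of Shmt2 is unsettled. Agxt, which detoxifies glyoxylate to glycine, had 12.42 and 12.76 in Shp2hep-/- livers and 12.87 and 12.90 in Shp2Floxed/Floxed livers (−0.30, SE 0.20). The 2 mitochondrial demethylating dehydrogenases of choline breakdown overlapped with their controls: Dmgdh, acting on dimethylglycine, differed by 0.27 (SE 0.28), and Sardh, acting on sarcosine, by −0.17 (SE 0.20).

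Proline and hydroxyproline oxidation did not separate the groups. Prodh, the proline dehydrogenase, differed by −0.16 (SE 0.22) and Prodh2, the hydroxyproline dehydrogenase, by −0.14 (SE 0.21). The 3 Prodh2 probes lay between −0.25 and −0.14 and overlapped each time, with replicate 2 the lower of the Shp2hep-/- pair on every probe.

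In lysine breakdown the first enzyme gave the largest difference of the group, and its probes disagreed. Aass, which carries out the first steps of lysine oxidation, had 8.74 and 9.44 in Shp2hep-/- livers and 9.89 and 9.92 in Shp2Floxed/Floxed livers (−0.82, SE 0.27, 95% interval −1.5 to −0.13, unadjusted p = 0.0279, adjusted p = 0.244), 1.76-fold lower. Without Shp2hep-/- replicate 1 the difference was −0.47. Of the other detected Aass probes, 1 differed by −0.49 and 1 by 0.43, each with overlapping groups. Gcdh, the glutaryl-CoA dehydrogenase downstream, differed by 0.10 (SE 0.19).

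The transaminases that move nitrogen between alanine and glutamate were lower on both arrays. Gpt, the cytosolic alanine aminotransferase, had 13.04 and 13.12 in Shp2hep-/- livers and 13.44 and 13.42 in Shp2Floxed/Floxed livers (−0.35, SE 0.18, adjusted p = 0.410). Gpt2, the mitochondrial form, had 13.10 and 13.38 in Shp2hep-/- livers and 13.63 and 13.43 in Shp2Floxed/Floxed livers (−0.29, SE 0.20, adjusted p = 0.539). The Shp2hep-/- pair of Gpt2 was 0.29 apart, about as wide as its difference. Glud1, the glutamate dehydrogenase that releases ammonia, had 11.47 and 12.53 in Shp2hep-/- livers around control values of 12.05 and 11.76 (0.09, SE 0.38). The Shp2hep-/- pair of Glud1 was 1.06 apart, the widest of the 32 genes.

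Genes with more than 1 detected probe give a second reading of the same RNA, which is not a replicate. Of 12 such genes, 7 had all their probes on 1 side of 0, and each of these 7 was lower: Afmid, Ftcd, Dbt, Bckdk, Pcca, Gldc and Prodh2. The probes of Pccb, Shmt2, Aass, Gcdh and Glud1 fell on both sides. Over all 51 detected probes of the group, 40 had a difference below 0, and Afmid alone gave 7 of the 51. Over all tested rows 49.4% were below 0, but these rows hold 1 probe per gene. The share over all genes with several probes was not calculated.

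**Figure D4:**
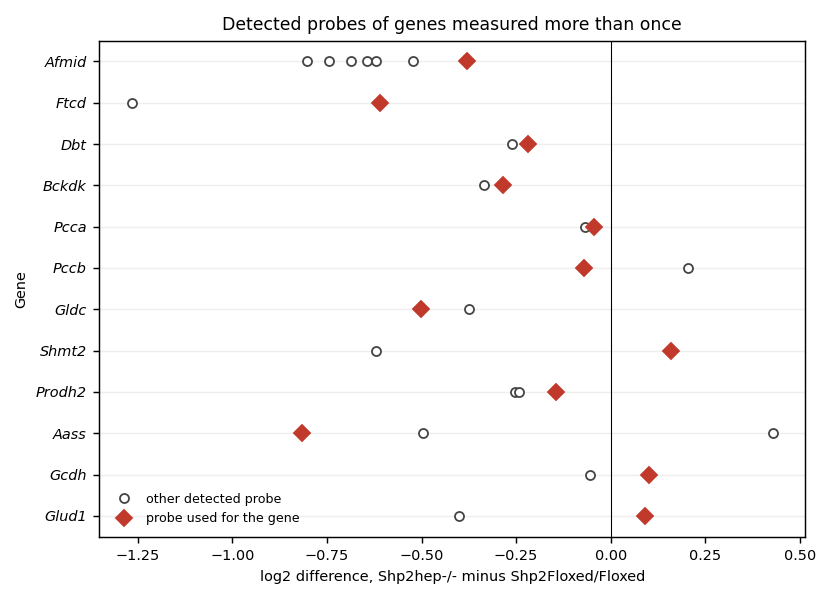
Log2 difference, Shp2hep-/- minus Shp2Floxed/Floxed, of each detected probe for the 12 genes with more than 1. Diamonds mark the probe used for the gene and open circles the others; the 7 Afmid probes all lie between −0.80 and −0.38.

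The probes not used for a gene, which are the dimmer ones, also differed more between the Shp2hep-/- replicates. Across 19 such probes the median gap within the Shp2hep-/- pair was 0.52, with replicate 2 above replicate 1 on 14, while the gap within the Shp2Floxed/Floxed pair was 0.18. Every unused Afmid probe was among the 14, so that 1 gene weighs heavily in this count. On the probes used for the 32 genes these gaps were 0.18 and 0.13. Over the 2886 unused detected probes of the whole table the gap was 0.33 in the Shp2hep-/- pair and 0.25 in the Shp2Floxed/Floxed pair. Replicate 2 was above replicate 1 of the Shp2hep-/- pair on 1658 of these 2886.

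A further list of 42 genes of the same routes, of which 32 were tested, was less one-sided. At an adjusted p under 0.05, 0 were higher and 0 lower. At an unadjusted p under 0.05, 4 were higher and 3 lower, where 9.45% of all rows were higher and 7.07% were lower. Its median was −0.14, with 18 of 32 below 0; both Shp2hep-/- arrays lay below the controls for 9 genes (28.1%) and above them for 7 (21.9%), close to the shares over all rows. The difference between the 2 lists was not tested.

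The 6 genes of that list with the smallest p, Ppm1k among them, were spread over several routes. Glyctk, a glycerate kinase of serine breakdown, had 11.35 and 10.95 in Shp2hep-/- livers and 12.14 and 12.27 in Shp2Floxed/Floxed livers (−1.06, SE 0.22, adjusted p = 0.126). Auh, a hydratase of leucine breakdown, was not well above background on either Shp2hep-/- array and entered the test only through the controls, so that its place among the separated genes carries no weight. Its means were 5.53 in Shp2hep-/- livers and 6.34 in Shp2Floxed/Floxed livers (adjusted p = 0.142). Setting the control mean against the lowest detected signal of each Shp2hep-/- array gave a value at least 1.46-fold lower in Shp2hep-/- livers with this normalization, but the fitted difference was −0.22 without background correction and −1.49 in the authors' processed table, so that its size is unsettled. Mmab, which prepares the cobalamin cofactor of methylmalonyl-CoA mutase, had 10.17 and 10.38 in Shp2hep-/- livers and 9.53 and 9.45 in Shp2Floxed/Floxed livers (0.78, SE 0.19, adjusted p = 0.154).

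Srr and Oat were also higher. Srr, the serine racemase, had 11.58 and 11.66 in Shp2hep-/- livers and 10.88 and 11.02 in Shp2Floxed/Floxed livers (0.67, SE 0.18, adjusted p = 0.179). Oat, the ornithine aminotransferase found in hepatocytes around the central vein, had 15.46 and 15.88 in Shp2hep-/- livers and 14.78 and 15.13 in Shp2Floxed/Floxed livers (0.72, SE 0.24, adjusted p = 0.247). In the 5 genes detected on all arrays the groups did not overlap. These genes were chosen for small p, which favours groups that lie apart, so that the separation adds no support. Over all rows, 24.8% were apart and higher and 23.8% were apart and lower.

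**Figure D5:**
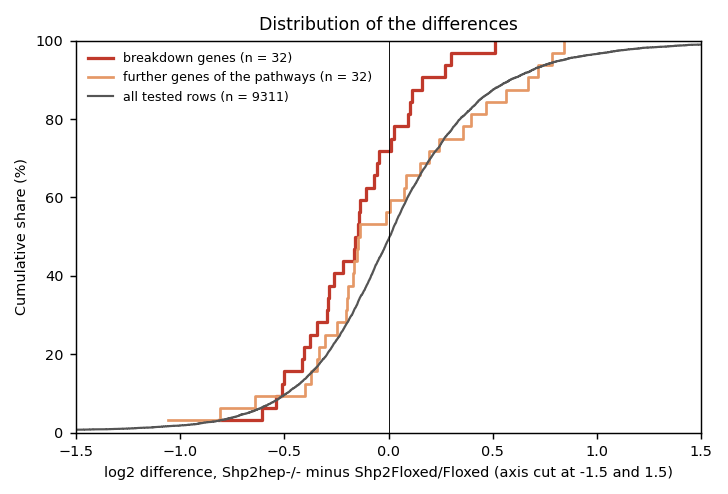
Cumulative share, in percent, of log2 differences (Shp2hep-/- minus Shp2Floxed/Floxed) among 32 amino acid breakdown genes, 32 further genes of the same pathways and all 9311 tested rows, with the axis cut at −1.5 and 1.5. The curve of the breakdown genes lies to the left of that of all rows over most of the range, with 71.9% of the genes below 0, against 49.4% of all rows.

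No marker gene of another cell type was higher or lower at an adjusted p under 0.05, the smallest being 0.0560 in the macrophage list, but several lists had medians away from 0 in the same samples. Of 16 Kupffer cell and monocyte markers, 12 were tested, with a median difference of 0.79 and a summed intensity of 12472 to 13787 units in Shp2hep-/- livers, against 5759 to 10192 in Shp2Floxed/Floxed livers; Itgam and Ccr2 were not above background. The control pair of these macrophage genes was itself apart by a median of −0.93 (replicate 2 minus replicate 1), more than the difference between the groups. At an unadjusted p under 0.05, 6 of the 12 macrophage genes, 4 of 9 stellate cell genes and 3 of 3 red blood cell genes were higher in Shp2hep-/- livers, and 0 genes of these lists were lower. Over all rows, 9.45% were higher and 7.07% were lower at this threshold. The control pair was apart by −0.41 in the stellate cell list and −1.04 in the red blood cell list. The 9 of 12 tested stellate cell and matrix markers had a median of 0.42, with sums of 20500 to 20814 in Shp2hep-/- livers and 11883 to 17245 in Shp2Floxed/Floxed livers; Col1a1, Lrat and Pdgfrb were not above background. The 3 of 8 tested red blood cell genes had a median of 1.29, with sums of 30584 to 32327 in Shp2hep-/- livers and 11829 to 19011 in Shp2Floxed/Floxed livers, while the probe of Hbb-b2 was not above background.

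All 10 endothelial markers were tested and had a median of −0.08, with sums of 10427 to 12813 in Shp2hep-/- livers and 8296 to 12968 in Shp2Floxed/Floxed livers. Of 6 bile duct markers 1 was tested (−0.11), and of 8 lymphocyte markers 2 were (median −0.07). The defining duct genes Krt7 and Krt19 and the T cell gene Cd3e were not above background. In whole liver, fewer hepatocytes and less of a transcript per hepatocyte cannot be told apart, and the part of these other cells in the lower values of the breakdown genes was not tested.

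Within hepatocytes, several of these enzymes are known to be concentrated near the portal vein, Hal among them. Of 12 periportal genes, 9 were tested, with a median difference of −0.08 and sums that overlapped, at 145452 to 165876 units in Shp2hep-/- livers and 156206 to 173977 in Shp2Floxed/Floxed livers. Of these 9, 0 were apart and higher and 1 was apart and lower. Of 12 pericentral genes, 11 were tested, with a median of 0.32. Of these 11, 7 were apart and higher (63.6%) and 1 was apart and lower. Over all rows 24.8% were apart and higher and 23.8% apart and lower. At an unadjusted p under 0.05 in limma's fit, 3 of the 11 were higher and 0 lower, against 9.45% and 7.07% of all rows. The sums of the pericentral genes were 138331 to 161583 in Shp2hep-/- livers and 127188 to 131673 in Shp2Floxed/Floxed livers. Oat, 1 of the further pathway genes, is also on this list. On the log2 scale Oat had 15.46 and 15.88 in Shp2hep-/- livers and 14.78 and 15.13 in Shp2Floxed/Floxed livers. Such a bright gene weighs heavily in a sum of intensities, and the sums without Oat were not calculated. The relation of either list to the breakdown genes was not tested.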

How the data were processed

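Total RNA of 4 mouse livers, 500 ng each, was amplified into biotin-labelled cRNA and read on 1 Illumina BeadChip, per the labels; each group took neighbouring positions on it, which leaves position and group inseparable. The authors deposited mean bead intensity on a linear scale, with no background subtracted and every array scaled to a mean of 1186.5, and a detection p-value for each of 25697 probes; 4 rows with no identifier were left out. A second deposited table holds processed intensity, with 25.3% to 25.4% of values below 0 and medians of 31.58 to 31.63; it ranked the probes as the scanner table did (Spearman correlation 1), its method is not given in the sources used here, and it served as an alternative.

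Scanner intensities were background-corrected and quantile-normalized with neqc (offset 16) of limma 3.58.1 in R 4.3.3. Probes with detection p under 0.05 on at least 2 of 4 arrays were kept (12197), and a gene was represented by its brightest. Symbols came from the platform annotation. Differences are Shp2hep-/- minus Shp2Floxed/Floxed, from lmFit and eBayes (2 residual plus 3.375 prior degrees of freedom), two-sided, with Benjamini-Hochberg adjustment over 9311 rows and a threshold of 0.05; SE is the moderated standard error. The fit was tested on simulated data. The number of arrays limits the precision, and levels of different probes were not compared.

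The members, lists and tests were chosen with earlier results of these data known. All 41 members were to be named, with Ptpn11, any called gene of the further pathway list and its 6 of smallest p; marker lists were given as medians and sums.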

Additional observations from a re-analysis of the deposited data

How the results depend on the processing

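Alternatives covered the filter on dim probes, the choice of probe, background correction, offset, centring, the authors' processed table, the variance model and each array left out. The count of breakdown genes called was 0 under all of them except the intensity trend, with 1 (Ftcd). Of the 32 genes, 22 kept their direction under all 14 alternatives. When a gene's probes were averaged Pccb was 0.0663, Shmt2 −0.23 and Glud1 −0.15; without background correction Mccc1 was −0.00605; with median centring, where the median of all rows was 0.09, Pcca was 0.0143. Leaving out 1 array gave Hpd −0.27 to 0.0622, Haao −0.0928 to 0.15, Mccc1 −0.38 to 0.39, Pcca −0.12 to 0.0283, Dmgdh −0.0785 to 0.62, Prodh −0.34 to 0.0231, Prodh2 −0.35 to 0.0623 and Glud1 −0.43 to 0.63. Of the 20 genes with separated groups, 13 moved by over 1.5 times without 1 array, among them Kmo (−0.77 to −0.31), Gldc (−0.73 to −0.29), Shmt1 (−0.59 to −0.24), Hal (−0.55 to −0.25), Uroc1 (−0.49 to −0.03), Agxt (−0.47 to −0.12) and Gpt2 (−0.45 to −0.15).

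The median of the breakdown genes was −0.26 with every probe on its own and −0.18 to −0.13 without 1 array. Genes lower with no overlap numbered 15 to 18 under the alternatives that kept all arrays and 1 row per gene (15 with median centring, where 17.2% of all rows were lower in this way), 26 of 51 probes with every probe on its own (24.3% of all rows), and 20 to 22 without 1 array, where a group holds a single array and 35.1% to 37.9% of all rows were lower in this way. Genes called in the whole table numbered 68, and 39 with every probe, 292 without background correction, 144 with offset 50, 13 from the authors' processed table, 309 with the intensity trend and 0 to 4 without 1 array; the cause was not tested. Of the further pathway genes 0 were called, but 4 without background correction (Glyctk, Mmab, Ppm1k and Srr) and 3 with the trend (Glyctk, Ppm1k and Srr). Ptpn11 differed by −1.33, and passed with detection on all arrays (−1.33, adjusted p = 0.0361), without background correction (−1.27, 0.00328), with offset 50 (−1.31, 0.0180) and with the trend (−1.33, 0.00166); without 1 array it was −1.42 to −1.25. No paired analysis was possible because the labels number only the Shp2hep-/- samples; the control numbers used here follow the order of the samples and are names only.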
